A study of Mus musculus with 6 samples.

Results

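The hypoxia response genes described here are 10 genes of the oxygen-sensing pathway built around the hypoxia-inducible factor, HIF: Hif1a, Epas1, Arnt, Vhl, Egln1, Egln3, Vegfa, Ldha, Pdk1 and Adm. Their members were all probe sets whose annotation lists 1 of these genes alone, which gave 26 of the 45101 probe sets on the array (10 of 18193 genes). RNA came from early erythroid progenitors of mouse fetal liver at embryonic day 13.5, sorted by flow cytometry after staining for CD71, Ter119 and the dead-cell dye 7AAD. The labels name 3 wild-type fetal livers and 3 fetal livers with a knockout of Eklf (Eklf -/-), all of strain C57BL/6, with 1 array each. Eklf, gene symbol Klf1, codes for a transcription factor that red cell precursors need to mature, and per the labels the targeted allele was built from strain 129 DNA. The labels name no Cre or transgene and do not limit the knockout to 1 cell type.

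HIF is a dimer of an oxygen-regulated alpha subunit, encoded by Hif1a or Epas1, and a constant partner encoded by Arnt. When oxygen is present, prolyl hydroxylases such as those encoded by Egln1 and Egln3 mark the alpha subunit, and the protein encoded by Vhl then directs it to degradation. When oxygen is low the dimer accumulates and raises transcripts of glycolysis, iron handling, blood vessel growth and red cell production. Much of this control acts on protein, so transcript levels of the subunits do not show HIF activity.

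Each array gave a MAS5 signal, a background-corrected brightness scaled so that the trimmed mean was 500 on every array. Median signals were 97.7 to 140 on the wild-type-labelled arrays and 204 to 218 on the knockout-labelled ones. The targeted gene, Klf1, overlapped between the groups. Its signals were 2508, 2706 and 4030 against 3505, 1391 and 2545 (log2 difference -0.38, limma adjusted p = 0.358), and the part of the gene its probe set covers is not given in the sources used here, so groups are called by their labels. Erythroid markers were present in both groups and called higher under the knockout label in 16 of 16 probe sets, with summed signals of 27384 to 28982 against 177972 to 310328. That label stands for the loss of a factor that red cell precursors need to mature, and the part of its loss in this difference was not tested. Markers of other cells were also present: the summed signal of the hepatocyte list was 11837 to 13702 against 197351 to 338709 (22 of 22 tested probe sets higher), of the endothelial list 1948 to 2548 against 6049 to 8172 (8 of 12 higher), and of the stromal list 1861 to 2235 against 20845 to 37070 (9 of 10 higher). The megakaryocyte list was higher in 7 of 7 (6569 to 7489 against 29733 to 39106), the lymphoid list lower in 9 of 9 (19985 to 27389 against 625 to 1116), the neutrophil list lower in 3 of 6 (129706 to 148828 against 82748 to 176287), and the macrophage list higher in 9 and lower in 3 of 13 (15009 to 18484 against 15584 to 19614). These marker counts include probe sets whose wild-type mean lay under the filter on dim signals given below, such as those named for Cdh5 and Col1a1. Such probe sets were tested only through the knockout-labelled arrays, and marker counts without them were not worked out. No marker probe set stood at 0. The dimmest on both sides was 1 of the stromal gene Acta2 (6.32 to 8.87 against 10.1 to 28.3), and the lymphoid recombinase gene Rag1 read 2946 to 3245 against 4.57 to 60.2. In such bulk samples, fewer cells of a type and less RNA per cell cannot be told apart.

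The promoters of the members that respond to HIF show where the factor's core letters lie. HIF binds short sites with the core ACGTG or GCGTG, and these 5 letters were searched on both strands in the 250 bases before each gene's start in RefSeq (GRCm38.p6). Besides Adm, a textbook HIF target, 5 of the genes shown had a probe set that was higher on the knockout-labelled arrays. Among them Pdk1 also had 1 that was lower. Hif1a and Arnt, which encode subunits of HIF, had a higher probe set as well but are not shown. Windows of 6 genes, with 2 starts of Vegfa, are given. They are written 5′ to 3′ along the gene, with matches to the core on either strand in capitals, and adjoining matches run together.
Ldha, chr7:46845554-46845803, plus strand: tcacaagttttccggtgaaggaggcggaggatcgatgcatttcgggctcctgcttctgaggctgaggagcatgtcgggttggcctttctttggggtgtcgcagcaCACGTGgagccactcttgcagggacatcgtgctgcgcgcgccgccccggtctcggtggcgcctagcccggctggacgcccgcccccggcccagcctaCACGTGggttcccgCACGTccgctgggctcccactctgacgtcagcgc
Egln1, chr8:124949255-124949504, minus strand: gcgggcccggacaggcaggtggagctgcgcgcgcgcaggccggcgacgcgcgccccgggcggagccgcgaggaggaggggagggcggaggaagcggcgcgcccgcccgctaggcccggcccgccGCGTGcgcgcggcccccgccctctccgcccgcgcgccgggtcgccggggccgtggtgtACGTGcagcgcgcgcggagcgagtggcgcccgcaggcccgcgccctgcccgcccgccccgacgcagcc
Egln3, chr12:54203875-54204124, minus strand: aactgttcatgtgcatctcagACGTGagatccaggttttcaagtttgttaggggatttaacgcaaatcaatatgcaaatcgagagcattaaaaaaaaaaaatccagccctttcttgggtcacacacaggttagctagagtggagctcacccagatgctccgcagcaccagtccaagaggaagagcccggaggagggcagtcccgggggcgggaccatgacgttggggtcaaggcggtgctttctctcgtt
Pdk1, chr2:71872974-71873223, plus strand: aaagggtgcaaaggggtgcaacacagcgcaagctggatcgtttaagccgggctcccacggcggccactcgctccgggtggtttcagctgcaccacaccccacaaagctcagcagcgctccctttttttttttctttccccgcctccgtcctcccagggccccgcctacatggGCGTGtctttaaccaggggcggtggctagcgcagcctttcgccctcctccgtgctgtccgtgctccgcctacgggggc
Adm, chr7:110627407-110627656, plus strand: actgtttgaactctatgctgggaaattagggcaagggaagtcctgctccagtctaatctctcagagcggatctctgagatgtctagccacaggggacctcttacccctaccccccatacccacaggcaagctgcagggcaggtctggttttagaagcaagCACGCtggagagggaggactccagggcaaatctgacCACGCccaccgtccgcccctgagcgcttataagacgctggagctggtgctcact
Vegfa, chr17:46032378-46032627, minus strand: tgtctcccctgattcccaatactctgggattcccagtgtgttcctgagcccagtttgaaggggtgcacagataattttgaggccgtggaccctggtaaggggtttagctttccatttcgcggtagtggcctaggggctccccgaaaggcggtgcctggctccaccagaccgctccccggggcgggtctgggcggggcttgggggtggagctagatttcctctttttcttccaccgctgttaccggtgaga
Vegfa, chr17:46025164-46025413, minus strand: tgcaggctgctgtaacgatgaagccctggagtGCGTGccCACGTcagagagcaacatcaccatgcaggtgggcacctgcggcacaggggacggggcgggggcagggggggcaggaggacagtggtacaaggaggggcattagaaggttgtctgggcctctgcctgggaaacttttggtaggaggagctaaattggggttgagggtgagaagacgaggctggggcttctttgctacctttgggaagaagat

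The Ldha window held 5 matches at 3 places, of which 4 matches came from 2 copies of a palindrome that reads ACGTG on each strand. Egln1 and Adm held 2 each, Egln3 and Pdk1 1 each, the upstream Vegfa start none and the downstream one 2. Among the other windows, Hif1a held 3 matches at 2 places, Arnt 1, Vhl none, a further Ldha start 1 and a further Pdk1 start none. In all 8 of the 9 member genes with a window had a match, beside 41.5% of 27025 genes and 38.6% of 32851 windows of the same length. Vegfa is among these 8 only through the window of its downstream start. That window lies past the upstream start, so inside the gene and not ahead of it. Epas1 is not in the promoter table. A match is a string of letters and not a measured site.

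Over the members, 12 of 23 tested probe sets rose under the knockout label and 1 fell at a limma adjusted p under 0.05, and 10 did not pass. Over all 27023 probe sets tested, 28.1% were called higher and 15.7% lower (43.8% in all, and 53.3% had an unadjusted p under 0.05). Among members the share of higher calls was 52.2% and that of lower calls 4.35%. At least 1 higher call was made for 8 of the 10 genes, all but Vhl and Adm, and Pdk1 had calls in both directions. A gene with more probe sets has more ways to get a call, and the share over all genes was not worked out, so nothing is read from this count. At the brightest probe set of each gene 4 of the 10 were called higher, beside 27.9% of 12799 genes. The median log2 difference was 0.92 over the tested members and 0.32 over all probe sets tested. The remaining 3 probe sets, 1 each of Hif1a, Epas1 and Adm, lay under the filter on dim signals (a mean log2 signal of 6.62, a signal of 98.6) and were not tested. Of the 12 called higher, Pdk1 1434974_at had a wild-type mean under the filter and was tested only through the knockout-labelled arrays. Without probe sets of that kind 11 of 22 members were called higher, beside 5392 of 23583 of all. Signals of the 2 groups did not overlap for 12 members higher and 2 lower, where 37.5% and 20.1% of all probe sets tested did so. The exact two-sided permutation test of 3 against 3 arrays cannot give a p below 0.1, and 14 of the 23 members reached it. These calls lean on the scaling of the arrays. The median difference over all probe sets moved from 0.32 to 0.0089 under quantile normalization, 0.031 under cyclic loess and -0.49 under median centring, and higher calls made up 64.2%, 46.9%, 47.8% and 17.0% of all calls. Of the 12 members called higher, 7, 8 and 3 were still called higher under these alternatives, and 11 stayed above 0 under all of them, the exception being 1 probe set of Pdk1 (-0.10 after median centring). The share of members called in either direction, 56.5% as deposited, was 34.8% under both quantile normalization and cyclic loess, next to 33.0% of all probe sets, and 43.5% against 45.8% under median centring. Counted in either direction, the members' share was thus near that of all probe sets under these scalings. Higher calls alone were 7 and 8 of 23 members under quantile normalization and cyclic loess, beside 4183 of 27022 and 4267 of 27023 probe sets. Under median centring they were 3 of 23, beside 2101 of 27023. The members' median difference was 0.40, 0.37 and 0.10 under these 3 scalings. Leaving out wild-type-labelled array 1 left 8 higher calls and no lower one, and leaving out knockout-labelled array 2 left 7 and none. With each of the 6 arrays left out in turn, 6 of the 12 kept their call in every fit: 1 probe set each of Epas1, Egln1, Egln3 and Ldha, and both of Vegfa.

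**Figure D1:**
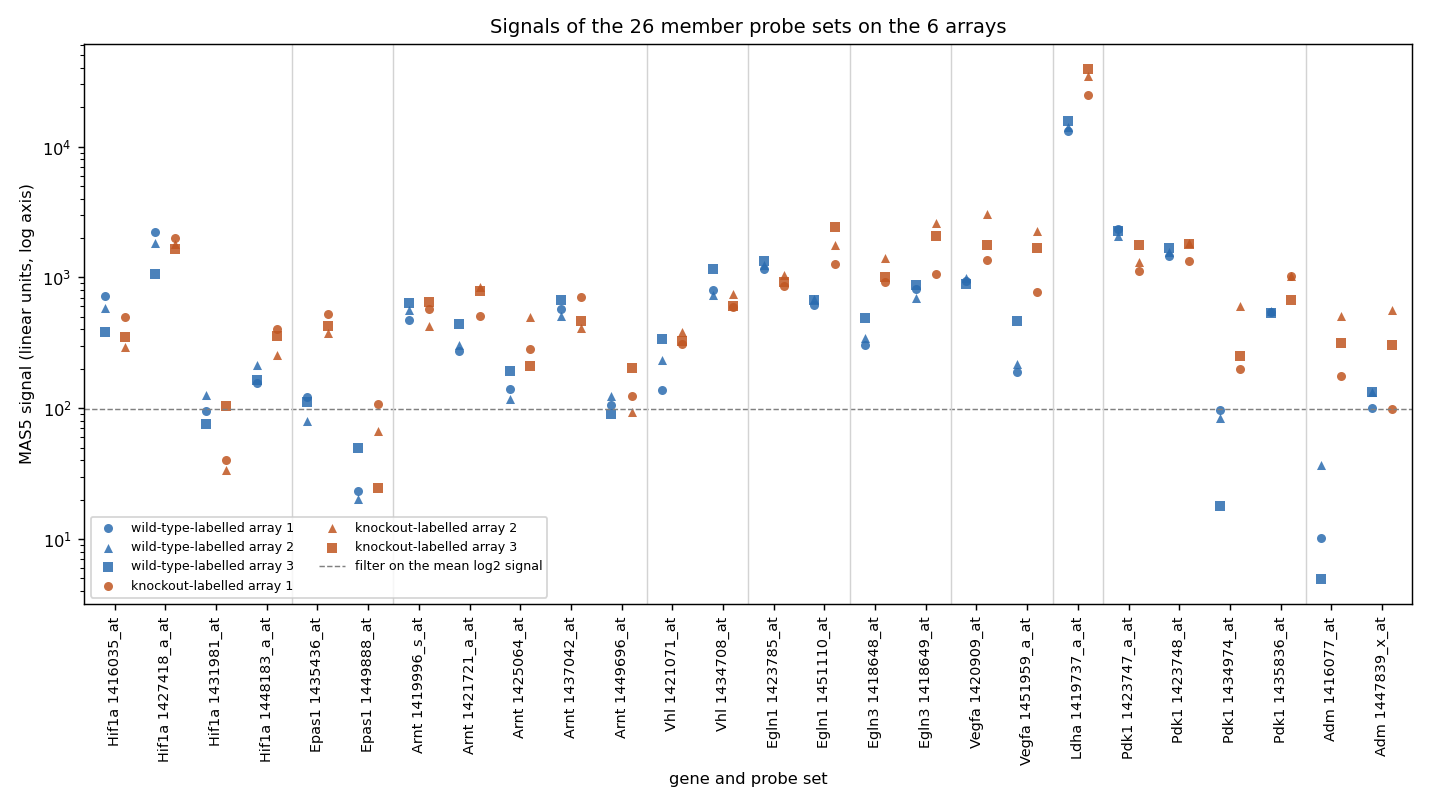
MAS5 signal on a log axis for each of the 26 member probe sets, with blue symbols for the 3 wild-type-labelled and orange symbols for the 3 knockout-labelled arrays; circles, triangles and squares mark arrays 1, 2 and 3 of a group, and the dashed line is the filter at a signal of 98.6. The groups stand apart for both Vegfa probe sets, both of Egln3 and that of Ldha, and lie among each other for most probe sets of Hif1a and Arnt.

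The alpha subunits differed in how their probe sets behaved. Epas1, the alpha subunit known from endothelial cells and from erythropoietin production, had a tested probe set, 1435436_at, with wild-type signals of 121, 80.0 and 111 and knockout-labelled signals of 527, 377 and 428. All 3 knockout-labelled values lay above the wild-type range, with means of 104 ± 21.4 and 444 ± 76.1 (SD, n = 3). It was higher 4.29-fold, by 2.10 ± 0.31 on the log2 scale (SE, limma adjusted p = 0.000977), and kept its call under all 3 other scalings (lowest 1.29, after median centring) and with each array left out. Its wild-type signals lie close to the filter, so the size of the fold rests on dim values. The dimmer Epas1 probe set, 1449888_at, read 23.4, 20.1 and 49.7 against 108, 67.0 and 24.4, with overlapping groups. The endothelial marker Cdh5 moved the same way, with 109, 119 and 72.7 against 431, 646 and 586 at 1433956_at, as did the hepatocyte marker Alb, with 2152 to 2459 against 29091 to 51414. The wild-type mean of this Cdh5 probe set lay just under the filter, so it was tested only through the knockout-labelled arrays. The part of these cells in the Epas1 signal was not tested.

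Hif1a, the alpha subunit found in most cells, had 3 tested probe sets, and they did not move together. The brightest, 1427418_a_at, gave 2211, 1849 and 1067 against 1998, 1786 and 1648. The groups overlapped and the difference was 0.14 (95% interval -0.44 to 0.73, limma adjusted p = 0.668), and it was -0.67 after median centring. Probe set 1416035_at gave 726, 586 and 381 against 496, 294 and 349, again with overlap, at -0.56 (-1.25 to 0.13, adjusted p = 0.163). The second passed as lower after quantile normalization (-0.92) and median centring (-1.37). Without wild-type-labelled array 3, which read lowest of its group on both, the difference at 1427418_a_at was -0.16, and 1416035_at passed at -0.82 (adjusted p = 0.0387). The dimmer 1448183_a_at gave 156, 213 and 165 against 405, 256 and 355, with no overlap. It was called higher at 0.92 ± 0.30 (SE, adjusted p = 0.0333). That call was lost without wild-type-labelled array 1 or 3 or knockout-labelled array 1 or 3 (adjusted p 0.0521 to 0.104) and under all 3 other scalings, where the difference was between 0.10 and 0.30. The last probe set, 1431981_at, was under the filter, at 75.1 to 127 against 33.9 to 104.

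Arnt, which encodes the constant partner of both alpha subunits, had 5 tested probe sets, of which 2 were called higher. At 1421721_a_at the signals were 273, 302 and 443 against 507, 840 and 784, without overlap, which gave a log2 difference of 1.07 ± 0.28 with a limma adjusted p of 0.0154. At 1425064_at they were 141, 118 and 192 against 285, 501 and 209, at 1.07 ± 0.39 (adjusted p = 0.0482), where knockout-labelled array 2 read highest and array 3 lay just above the wild-type range. Both calls were lost under quantile normalization, cyclic loess and median centring. The first was lost without wild-type-labelled array 1 or knockout-labelled array 2 or 3 (adjusted p 0.0515 to 0.0610), and the second without wild-type-labelled array 1 or 2 or knockout-labelled array 1 or 2 (0.0775 to 0.169). The 3 others overlapped between groups and did not pass: 1437042_at at -0.18 (95% interval -0.75 to 0.40), 1419996_s_at at -0.034 (-0.56 to 0.50) and 1449696_at at 0.32 (-0.61 to 1.26).

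Vhl, the recognition subunit of the ligase that removes hydroxylated HIF, had no call. At 1434708_at it gave 798, 737 and 1162 against 589, 743 and 609, with overlap, a difference of -0.45 (95% interval -0.96 to 0.057, limma adjusted p = 0.130). At the dimmer 1421071_at it gave 139, 235 and 339 against 310, 381 and 329, at 0.60 (-0.18 to 1.39, adjusted p = 0.183). The second passed without wild-type-labelled array 3 (0.91, adjusted p = 0.0452), and the first after median centring (-1.27), where the second turned to -0.21. The intervals include changes of about the size called elsewhere among the members, so a difference in Vhl was not detectable with 3 arrays per group and is not shown to be absent.

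Of the oxygen sensors, Egln3 was higher at both of its probe sets. Egln3, a prolyl hydroxylase that is itself a HIF target, gave 306, 344 and 487 against 926, 1401 and 1008 at 1418648_at. The lowest knockout-labelled value was above the highest wild-type one, with means of 379 ± 95.5 and 1112 ± 254 (SD, n = 3), a 2.94-fold difference (log2 1.56 ± 0.25, SE, limma adjusted p = 0.00167). At 1418649_at it gave 820, 700 and 882 against 1069, 2590 and 2067, a log2 difference of 1.17 ± 0.30 (adjusted p = 0.0141). The lower value came from knockout-labelled array 1, and the call was lost without knockout-labelled array 2 or 3 (adjusted p 0.0528 and 0.0581). After median centring the 2 differences were 0.74 and 0.35 and neither passed.

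Egln1, the main oxygen-sensing hydroxylase in most tissues and also a HIF target, gave opposite signs. Its probe set 1451110_at read 620, 687 and 670 against 1269, 1760 and 2428, a 2.67-fold difference without overlap (log2 1.42 ± 0.24, SE, limma adjusted p = 0.00203). The call held with each array left out (adjusted p up to 0.0107) and was lost after median centring (0.60). Probe set 1423785_at read 1158, 1237 and 1326 against 862, 1037 and 924, which was lower without overlap but did not pass at -0.40 ± 0.17 (adjusted p = 0.0784). It passed after median centring (-1.22). Both probe sets are listed for the same sequence accession, and which transcripts each covers is not given in the sources used here. Egln2, the other hydroxylase of the family, read 1489, 1417 and 1805 against 1374, 1097 and 1015 and did not pass (-0.44 ± 0.19, adjusted p = 0.0819).

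**Figure D2:**
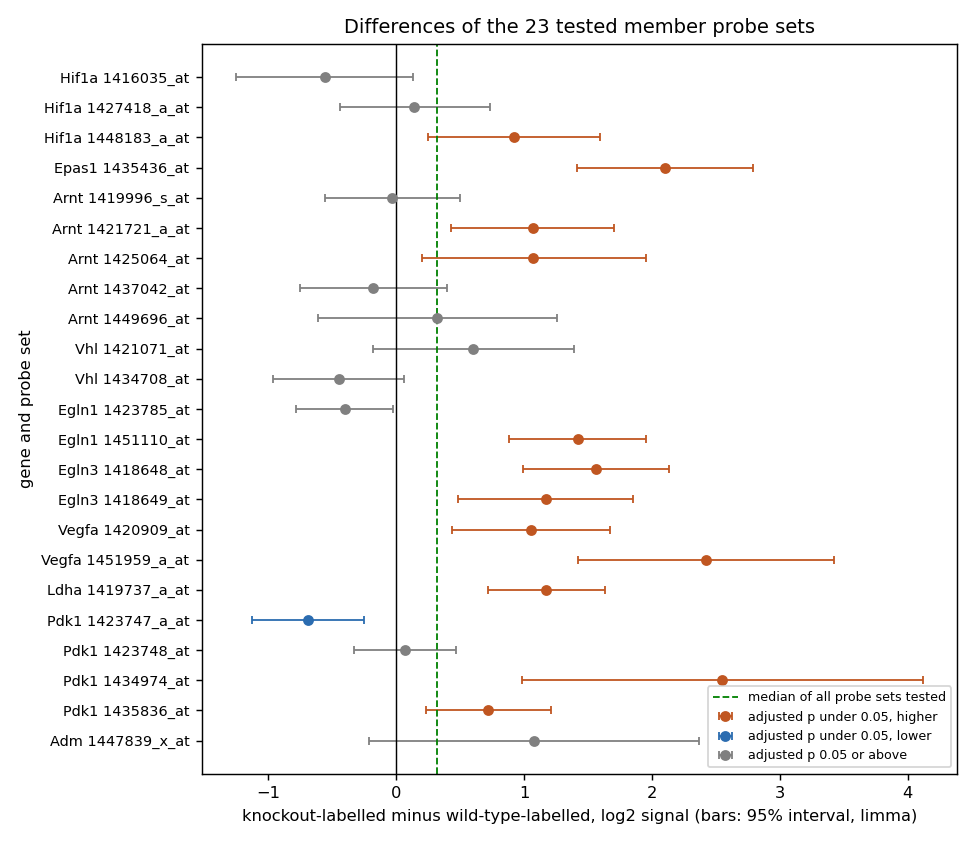
Log2 difference, knockout-labelled minus wild-type-labelled, for the 23 tested member probe sets, with 95% intervals from limma (n = 3 arrays per group); orange marks higher calls, blue the lower call, grey no call, and the green dashed line the median of all probe sets tested, 0.32. Intervals of Epas1, Egln3, Vegfa and Ldha lie to the right of that line, while those of Vhl cross 0, and Egln1 and Pdk1 each have intervals on both sides of the line.

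Vegfa was higher at both probe sets. Vegfa encodes the main growth factor of blood vessels. At 1451959_a_at it read 188, 219 and 466 against 775, 2262 and 1675, with means of 291 ± 153 and 1571 ± 749 (SD, n = 3). The groups did not overlap, and within the knockout-labelled group array 1 read lowest and array 2 highest. The difference was 5.36-fold (log2 2.42 ± 0.44, SE, limma adjusted p = 0.00304), and it passed under all 3 other scalings (lowest 1.61, after median centring) and without each array (adjusted p up to 0.0180). At 1420909_at Vegfa read 938, 982 and 888 against 1352, 3038 and 1783, with the same order of the knockout-labelled arrays. That difference was 2.08-fold (log2 1.05 ± 0.27, adjusted p = 0.0139) and fell to 0.24 after median centring, where it did not pass. Endothelial and hepatocyte markers were higher on the same arrays, as given above. Between knockout-labelled arrays 2 and 1 the Vegfa probe sets differed by 1.54 and 1.17 on the log2 scale. The median difference was 0.97 for the lymphoid list, 0.57 for the neutrophil list and 0.50 for the endothelial list. It was 0.42 for the megakaryocyte and 0.22 for the erythroid list. For the macrophage, hepatocyte and stromal lists it was -0.074, -0.11 and -0.64. The lymphoid value rests on dim signals, with 625 to 1116 summed over 11 probe sets on the knockout-labelled arrays. The part of these cells in the Vegfa difference was not tested.

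Ldha, the lactate dehydrogenase subunit that regenerates NAD+ in glycolysis, was higher at its 1 probe set, 1419737_a_at. It read 13111, 14247 and 15598 against 24628, 34827 and 38902. Every knockout-labelled value was above the wild-type range, with means of 14319 ± 1245 and 32786 ± 7353 (SD, n = 3), a 2.25-fold difference (log2 1.17 ± 0.20, SE, limma adjusted p = 0.00221). The call held with each array left out (adjusted p up to 0.0134), under quantile normalization and under cyclic loess, and was lost after median centring (0.36). Ldhb, the other common subunit, had 4 tested probe sets: the brightest gave 0.0065 (95% interval -0.41 to 0.42) and 1 dimmer probe set, 1434499_a_at, was called lower (-1.07 ± 0.36, adjusted p = 0.0390).

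Pdk1, the kinase that keeps pyruvate out of the mitochondrial citrate cycle by inhibiting pyruvate dehydrogenase, had calls in both directions. Its brightest probe set, 1423747_a_at, read 2343, 2083 and 2246 against 1121, 1312 and 1777 and was called lower (log2 -0.69 ± 0.19, SE, limma adjusted p = 0.0199). The next, 1423748_at, read 1467, 1567 and 1673 against 1342, 1834 and 1793 and did not pass (0.066, 95% interval -0.33 to 0.47). It was -0.014 without knockout-labelled array 2 and passed as lower after median centring (-0.75). At 1435836_at it read 545, 558 and 530 against 1026, 1029 and 677 and was called higher (0.72 ± 0.22, adjusted p = 0.0260). At the dim 1434974_at it read 97.5, 84.4 and 17.8 against 198, 600 and 249 and was called higher (2.55 ± 0.70, adjusted p = 0.0173). This probe set passed the filter only through the knockout-labelled arrays, so nothing is supported with its call. The lower call was also lost under quantile normalization and cyclic loess, as was that of 1434974_at, and that of 1435836_at under quantile normalization and median centring (-0.10). Leaving out 1 array removed each call: the lower one without wild-type-labelled array 1 or knockout-labelled array 2 (adjusted p 0.0640 and 0.0643), that of 1435836_at without wild-type-labelled array 1 or 2 or knockout-labelled array 1 or 2 (0.0591 to 0.0911), and that of 1434974_at without knockout-labelled array 2 (0.0728). No direction of Pdk1 as a gene can be read from these probe sets.

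Adm, which encodes the vessel-dilating peptide adrenomedullin, was dim. Probe set 1416077_at read 10.2, 37.1 and 4.99 against 177, 511 and 316. The groups did not overlap, but the mean lay under the filter and it was not tested. Probe set 1447839_x_at, of a type whose probes can also match other transcripts, read 100, 134 and 133 against 99.5, 565 and 302. Here knockout-labelled array 1 read at the wild-type level and arrays 2 and 3 above it, and the difference did not pass (1.08 ± 0.57, SE, limma adjusted p = 0.149). It passed without knockout-labelled array 1 (1.77, adjusted p = 0.0104).

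Taken 1 probe set per gene, at the brightest, 4 of the 10 genes were called higher (Epas1, Egln3, Vegfa and Ldha) and Pdk1 lower, beside 27.9% and 20.8% of 12799 genes (48.7% in all). With the mean over all probe sets of a gene, Epas1 fell under the filter, and 6 of the 9 genes left were called higher, beside 27.4% higher and 16.9% lower of 11355 genes (44.3% in all). They were Vegfa (1.74), Egln3 (1.36), Ldha (1.17), Pdk1 (0.66), Egln1 (0.51) and Adm (2.85). The gene mean of Adm, a log2 signal of 5.28 on the wild-type-labelled arrays and 8.13 on the knockout-labelled ones, passed the filter only through the latter, so nothing is supported with its call. Hif1a (-0.10), Vhl (0.075) and Arnt (0.45) did not pass. Vegfa, Egln3 and Ldha were thus called higher under each of these choices, whereas the calls for Pdk1 and Egln1 turned on the probe sets used.

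Other genes of the pathway were described through 5 lists with 78 genes, of which 72 had a probe set of their own and 66 passed the filter. Textbook HIF targets were mostly higher: of 71 tested probe sets 58 were called higher and 2 lower (81.7% and 2.82%, beside 28.1% and 15.7% of all), and of 37 target genes 29 had only higher calls, 1 only lower, 1 both and 6 none. At the brightest probe set of each gene 28 of the 37 were called higher and 2 lower, beside 27.9% and 20.8% of 12799 genes. The median log2 difference over the target probe sets was 1.46, with 1.31 under quantile normalization, 1.29 under cyclic loess and 0.64 under median centring, where 23 probe sets were called higher and 5 lower. Leaving out 1 array gave 48 to 60 higher calls. Of the 58 higher calls, 7 were for probe sets whose wild-type mean lay under the filter, so that they were tested only through the knockout-labelled arrays. Without such probe sets 51 of 62 were higher, beside 5392 of 23583 of all. Among all higher calls 29.0% were of this kind. In the glucose and glycolysis list 25 of 30 were higher and 2 lower, and under median centring 6 were higher and 4 lower. Slc16a3, a lactate exporter, read 1019, 1075 and 2056 against 5602, 5167 and 5544 (log2 2.05 ± 0.26, SE, limma adjusted p = 0.000429). Pfkl, a phosphofructokinase subunit, rose 3.18-fold at 1450269_a_at, and the aldolases Aldoc and Aldoa by log2 differences of 2.57 (1451461_a_at) and 1.79 (1434799_x_at). The other Aldoc probe set was dim, overlapped between the groups and was not tested. Other Aldoa probe sets ran from 0.79 to 2.04. The 2 lower calls were Pfkfb4 (-0.93) and 1 of 2 probe sets of Pfkfb3 (-0.78, with 1.24 at the other), which make a regulator of phosphofructokinase. Several of these enzymes are also abundant in maturing red cells, and the erythroid list was higher on the same arrays. The part of maturation in these calls was not tested.

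Among HIF targets outside glycolysis 33 of 41 tested probe sets were higher and none lower. Without probe sets whose wild-type mean lay under the filter, 26 of 32 were higher, beside 5392 of 23583 of all. Under median centring 17 of the 41 were higher and 1 lower. Bnip3, a mitophagy receptor, read 1161, 1108 and 1388 against 7449, 19273 and 14533, a 10.5-fold difference (log2 3.40 ± 0.31, SE, limma adjusted p = 7.88e-05). The collagen hydroxylases P4ha1 and Plod2 were higher by 2.33 (1452094_at) and 2.79 (1416686_at). Hmox1, which breaks down haem and responds to haem as well as to HIF, was higher by 3.99. P4ha1 and Plod2 modify collagen, and the stromal markers Col1a1, at 60.1 to 91.8 against 2663 to 4065 (1423669_at), and Col3a1 were higher on the same arrays. The wild-type signals of this Col1a1 probe set lay under the filter, so it was tested only through the knockout-labelled arrays. The part of stromal cells was not tested.

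The rest of the HIF machinery showed few calls in the arrays as deposited. Of 26 tested probe sets 3 were higher and 2 lower, at 11.5% and 7.69%, and of 11 genes 8 had no call. At the brightest probe set of each gene 1 of the 11 was higher and 1 lower, beside 27.9% and 20.8% of 12799 genes. Under median centring none of the 26 probe sets was higher and 12 were lower, a scaling that called 2101 of all 27023 probe sets higher and 10273 lower. The median difference of 0.053 lay under the 0.32 of all probe sets, and it was below 0 under the 3 other scalings (-0.094, -0.089 and -0.76). Cited2, a HIF target that competes with the alpha subunits for their coactivators, read 7137, 7512 and 9107 against 3434, 3545 and 3398 at 1452207_at (log2 -1.19 ± 0.15, SE, limma adjusted p = 0.000481), while its other probe set, 1421267_a_at, did not pass (-0.32). Hif3a, an alpha subunit some forms of which inhibit HIF, was higher at 2 probe sets (1.07 and 1.25) and lower at 1 (-0.80). Siah1a, a ubiquitin ligase that acts on prolyl hydroxylases, was higher at 1 of 3 (1.11). Among the pyruvate dehydrogenase and lactate dehydrogenase genes 1 of 16 probe sets was higher and 2 were lower, and under median centring 1 was higher and 11 were lower. Pdk2, a paralog of Pdk1, read 186, 142 and 281 against 585, 869 and 963 (2.02 ± 0.32, adjusted p = 0.00144). Pdk3 did not pass (-0.08, 95% interval -0.53 to 0.37), Pdk4 was under the filter, and Pdhb, a subunit of pyruvate dehydrogenase, was lower by a log2 difference of -0.45.

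**Figure D3:**
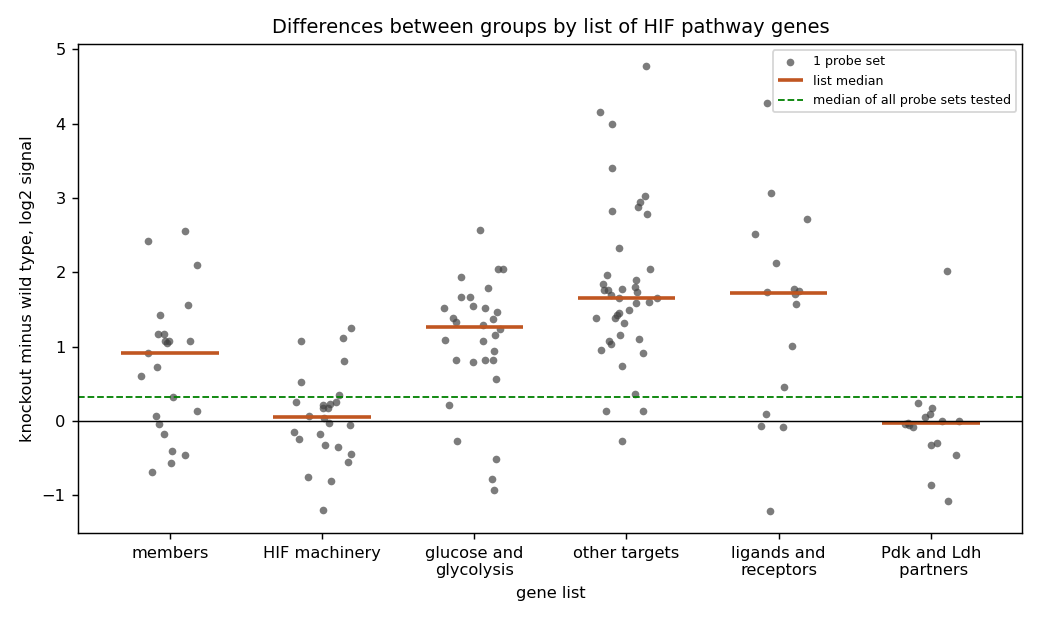
Log2 difference between the groups for each tested probe set of the members and of the 5 lists of other HIF pathway genes; orange bars are list medians and the green dashed line is the median of all probe sets tested, 0.32. Medians were 0.92 for members, 1.26 and 1.66 for the target lists, 1.73 for ligands and receptors, and 0.053 and -0.031 for the machinery and the Pdk and Ldh partners. Some probe sets passed the filter only through the knockout-labelled arrays. With the filter at the 60th percentile medians were 0.66 for members, 1.22 and 1.69 for the target lists and 0.46 for ligands and receptors, against 0.059 for all.

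In the list of ligands and of receptors for the products of Vegfa and Adm, 11 of 16 tested probe sets were called higher and 1 lower. Of the 11, 6 were tested only through the knockout-labelled arrays, their wild-type mean being under the filter. Without such probe sets 5 of 10 were higher, beside 5392 of 23583 of all. With the filter at the 60th percentile 4 of 9 were higher and 1 lower, and the median log2 difference was 0.46, beside 0.059 for all probe sets. Under quantile normalization and cyclic loess 6 of 16 were higher, with medians of 0.98 and 0.96 in place of 1.73, and under median centring 7 were higher and 2 lower. Kdr, the main signalling receptor for Vegfa, read 342, 373 and 289 against 891, 1360 and 1138 (log2 1.74 ± 0.22, SE, limma adjusted p = 0.000512). Flt1, a decoy-like receptor for Vegfa, read 17.1, 48.7 and 18.4 against 261, 700 and 602 at 1451756_at, with wild-type signals under the filter. Nrp2, a co-receptor, was higher by 2.12 at 1426528_at. Ramp2, which pairs with Calcrl to form the adrenomedullin receptor, was higher by 1.75, whereas Calcrl was higher at 2 probe sets (1.01, and 1.77 with a wild-type mean under the filter) and lower at its brightest (-1.21). Kdr and Flt1 are at the same time endothelial markers and stand in that list, so these counts and the endothelial count share them. Vegfb, a relative of Vegfa, did not pass (-0.086, 95% interval -0.83 to 0.66).

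The knockout-labelled arrays differed among themselves in these genes, a pattern noticed after the values were seen. Both Vegfa and both Egln3 probe sets, both of Adm, and Pdk1 1434974_at read highest on array 2, next on array 3 and lowest on array 1. Of these, the dimmer Adm probe set was not tested. Pdk1 1434974_at passed the filter only through the knockout-labelled arrays, so nothing is supported with its order. The same order was found for 11 of the 23 tested members (47.8%), 14 of 30 probe sets of the glycolysis list (46.7%) and 29 of 41 of the other targets (70.7%). It was found for 19.0% of all probe sets tested and 26.0% of those called higher. The shares of members, other targets and all probe sets include probe sets whose wild-type mean lay under the filter. Shares without them were not worked out. The median log2 difference between arrays 2 and 1 was 0.34 for the members, 0.69 for glycolysis and 1.09 for the other targets, against 0.02 for all probe sets. Of 37 target genes 18 had the order in every tested probe set, among them Bnip3, Plod2, P4ha1, Slc2a1 (a glucose transporter), Kdm3a (a histone demethylase), Ndrg1 and Ankrd37. Ankrd37 read 356, 1612 and 1015 on knockout-labelled arrays 1, 2 and 3, and 203 to 280 on the wild-type-labelled ones. Epas1, Hif1a and 4 of 5 Arnt probe sets did not follow it, and 3 of 3 tested Hif1a probe sets read highest on array 1. Both Vhl probe sets followed it without a call, as did Egln1 1423785_at, while Ldha and Egln1 1451110_at, both called higher, read highest on array 3. After quantile normalization and median centring the order was found for 11 and 10 members and 48 and 40 of 71 target probe sets, against 18.2% and 15.0% of all. Among marker lists it was found for 2 of 22 hepatocyte, 0 of 10 stromal, 3 of 16 erythroid, 6 of 12 endothelial and 5 of 7 megakaryocyte probe sets. For lymphoid, macrophage and neutrophil probe sets the counts were 3 of 9, 2 of 13 and 0 of 6. Probe sets of 1 gene and genes of 1 array share their RNA and are not independent of each other, so these shares are a description of 3 arrays.

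**Figure D4:**
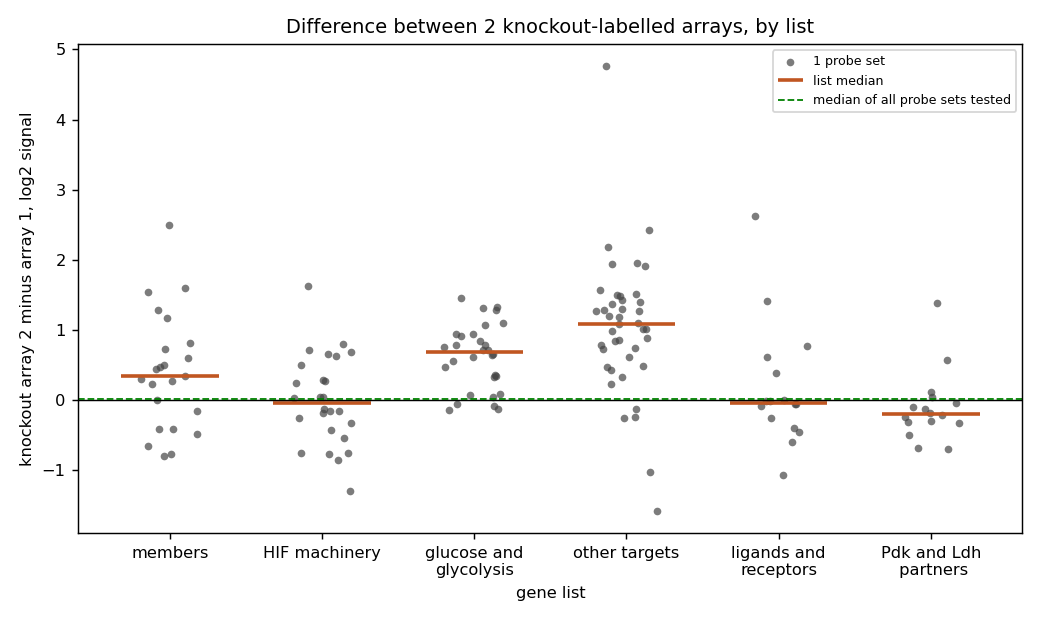
Log2 signal on knockout-labelled array 2 minus that on array 1 for each tested probe set of the members and the 5 lists; orange bars are list medians and the green dashed line is the median of all probe sets tested, 0.02. The other targets (1.09), glycolysis (0.69) and members (0.34) have medians above that line, while the machinery (-0.047), receptors (-0.033) and Pdk and Ldh partners (-0.19) do not. Some of these probe sets passed the filter only through the knockout-labelled arrays, and medians without them were not worked out.

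**Figure D5:**
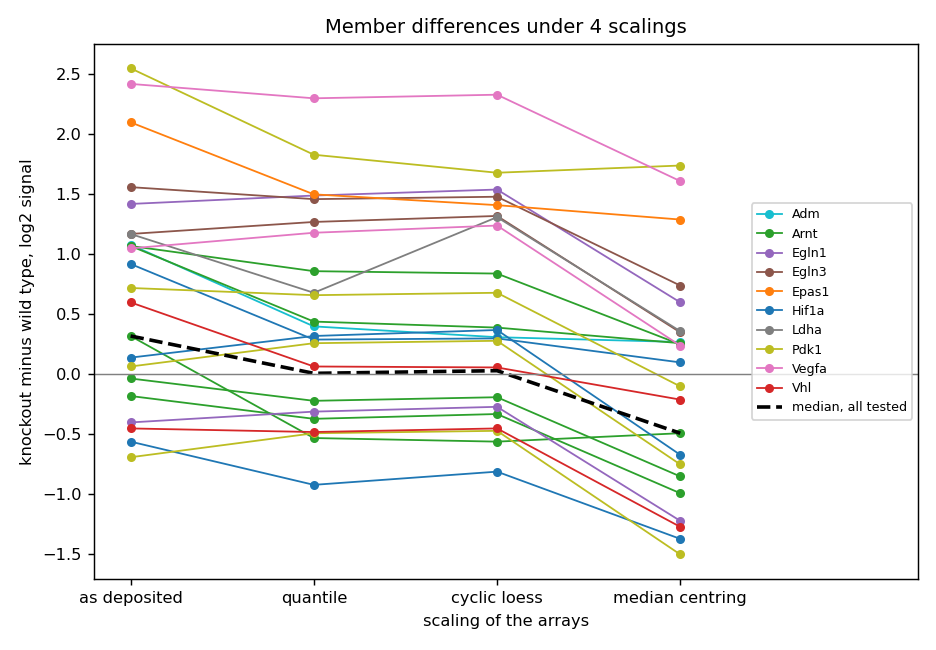
Log2 difference between the groups for each of the 23 tested member probe sets, coloured by gene, with the arrays as deposited and under quantile normalization, cyclic loess and median centring; the black dashed line is the median of all probe sets tested. It falls from 0.32 to -0.49 after median centring, and the members fall with it, so that Vegfa 1451959_a_at (1.61) and Epas1 1435436_at (1.29) stay well above 0 while Pdk1 1435836_at turns to -0.10. The dim Pdk1 1434974_at (1.74) passed the filter only through the knockout-labelled arrays, so nothing is supported with it.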

How the data were processed

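Gene expression was measured on 6 single-colour Affymetrix mouse arrays, 3 per group. The deposited file holds 1 linear intensity per probe set and array. The submitters' processing notes name MAS5 and Affymetrix Expression Console without versions. Scaling each array to 1 trimmed mean leaves the medians free to differ. Detection calls were not used here.

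Gene symbols were brought up to date with RefSeq by Entrez identifier (34754 of 34958 probe sets with 1 gene), and 64 control probe sets were left out. Signals under 1 were set to 1 and log2 was taken. Probe sets with a mean log2 signal at or above the 40th percentile were tested with limma 3.58.1 in R 4.3.3 (lmFit, eBayes with trend, two-sided); p was adjusted by Benjamini-Hochberg across the 27023 tested, at a threshold of 0.05. Scripts were tested on simulated data. Each difference is the knockout-labelled mean minus the wild-type mean, and p-values measure the spread between these samples. Signals of different probe sets are not comparable as levels. Named genes were all members, up to 4 called genes per list by smallest p, and receptors and paralogs of members. Pfkfb3, Pfkfb4, Slc2a1, Kdm3a, Ndrg1, Ankrd37, Acta2, Alb, Cdh5, Col1a1, Col3a1 and Rag1 were named after their values were seen. Members and lists were chosen with earlier results of these data known. Some genes of the pathway and marker lists were not analysed here. The labels call the RNA samples independent. Alternatives were other scalings, offsets, filters, variance models, choices of probe set, a replicate block, each array left out and a threshold of 0.01. Tables and figures used Python 3.11.15 and matplotlib 3.10.9.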

Additional observations from a re-analysis of the deposited data

How the results depend on the processing

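The share of tested members called, 56.5% (13 of 23), was 34.8% (8 of 23) after quantile normalization and after cyclic loess, beside 33.0% of all probe sets under both, and 21.7% (5 of 23) at a threshold of 0.01, where the share of all probe sets called fell from 43.8% to 22.7%. Without each array in turn the members' share ran from 30.4% to 60.9%, that of the other pathway genes (62.0%) from 49.6% to 65.1% and that of all probe sets from 30.9% to 42.8%. Median centring gave the members a share of 43.5%, beside 45.8% of all, and changed its makeup, from 12 higher and 1 lower to 3 higher and 7 lower. Over all 27023 probe sets tested the makeup changed as well, from 7595 higher and 4243 lower to 2101 higher and 10273 lower. Of the remaining alternatives, none moved a share by over 1.5 times. Signs turned only for probe sets of Hif1a, Arnt, Vhl and Pdk1, all but Pdk1 1435836_at without a call as deposited. Hif1a 1427418_a_at (0.14) gave -0.67 after median centring, -0.17 with array weights and -0.16 to 0.36 without 1 array. Arnt 1419996_s_at (-0.034) gave 0.082 with array weights and -0.16 to 0.13 without 1 array, and Arnt 1449696_at (0.32) gave -0.53 after quantile normalization, -0.49 after median centring and -0.56 after cyclic loess. After median centring Vhl 1421071_at gave -0.21, Pdk1 1435836_at -0.10 and Pdk1 1423748_at -0.75, and the last ran from -0.014 to 0.21 without 1 array. Apart from what median centring takes from all probe sets, the cause was not tested. With the replicate number as a block 47.8% of members were called (10 higher, 1 lower), with the calls of Hif1a 1448183_a_at and Arnt 1425064_at lost. Arrays of 1 number did not clearly deviate together (correlations of 0.042, 0.054 and 0.076), although each array correlated best with its own number, so the numbers were not taken as pairs. The number of arrays limits all of these values.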
